A study of Mus musculus with 8 samples.

Results

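The change of the null over wild-type expression ratio of mouse intestinal crypt cells over the first day of culture was read from 4 of the 8 arrays of the series, 2 at day 1 without LiCl and 2 at day 0. Each array carried RNA from crypt cells of Lgr4 null mice, which hold a gene trap in Lgr4 (also called Gpr48), in 1 dye, and RNA from crypt cells of wild-type mice in the other. Both genotypes were on the outbred CD1 background, and per the labels both RNAs of an array came from the same day. The labels give no age, sex or number of animals. At day 1 and at day 0 the null RNA was in Cy5 on replicate 1 and in Cy3 on replicate 2. For each of 15123 genes the probes were averaged. A gene was counted as moved when its ratio on both day 1 arrays lay on the same side of both day 0 arrays. That held for 7386 genes (48.8%), 3634 above (24%) and 3752 below (24.8%). With 2 arrays a day many unchanged genes meet this rule by chance, so 7386 is not a number of changed genes. The genes described are mainly among the 1269 (8.39%) that also passed limma's test of the difference between the days. The other arrays, 2 at day 0.5 and 2 at day 1 with LiCl (which blocks the kinase GSK3), entered the estimate of spread, and day 0.5 is described last.

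The Lgr4 protein binds R-spondins outside the cell, which keeps Wnt receptors at the surface and raises Wnt signalling. In the intestinal crypt this signal keeps stem cells and their dividing progeny in cycle, and Paneth cells at the crypt base supply part of it. Crypts placed in culture lose the surrounding tissue and depend on factors given in the medium, among which R-spondin is usual.

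The values are log ratios of null over wild type, taken as log2, so a change of 1 is a 2-fold change of the genotype ratio. A lower ratio can come from less RNA in null crypts or more in wild-type crypts. Without intensities the 2 cannot be told apart, nor can fewer cells of a type and less RNA per cell. The direction is the likely one: the labels give the null RNA as channel 1 of every array, and the median of the Paneth cell list was below 0 on all 4 arrays, although some of its genes were above it. The same channel label also covers the LiCl arrays, whose direction is not settled. The labels do not say that the arrays of a day hold separate animals or cultures, and the series text speaks of dye-swapped repeats, so p-values measure how far these arrays scatter, and that scatter may be technical alone. An exact permutation test of 2 arrays against 2 cannot pass 0.05. Lgr4 itself, the check of the genotype, was not analysed here.

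The ratios spread wider at day 1 than at day 0, with SDs over genes of 0.519 and 0.485 at day 1, against 0.323 and 0.297 at day 0. Arrays of the same day correlated at 0.804 at day 1 and 0.496 at day 0 across genes, and arrays of different days at 0.235 to 0.336. Per-array medians were within 0.006 of 0. With arrays scaled to equal spread, limma called 493 genes in place of 1269.

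In all, 1269 of 15123 genes (8.39%) passed limma's test at an adjusted p under 0.05 (Benjamini-Hochberg, all genes), 544 higher (3.6%) and 725 lower (4.79%) at day 1 than at day 0. Every one of them had both day 1 arrays on one side of both day 0 arrays. The change was at least 2-fold for 265 higher (1.75%) and 392 lower genes (2.59%), and 3280 (21.7%) had an unadjusted p under 0.05. Taking a mean ratio of at least 0.5 in size as away from 0, 1006 of the 1269 were near 0 at day 0 and away from it at day 1, 429 of them higher and 577 lower. A smaller group of 110 genes was away from 0 at day 0 and near it at day 1, 54 higher and 56 lower. Another 39 genes were away from 0 on opposite sides on the 2 days, 58 on the same side, and 56 near 0 on both. With the replicate number as a block, since same-numbered arrays of the groups without LiCl deviated together, 1964 passed, 858 higher and 1106 lower, all 1269 among them. The count rested on each array: 252 and 454 passed without day 1 replicate 1 or 2, and 110 and 168 without day 0 replicate 1 or 2.

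**Figure D1:**
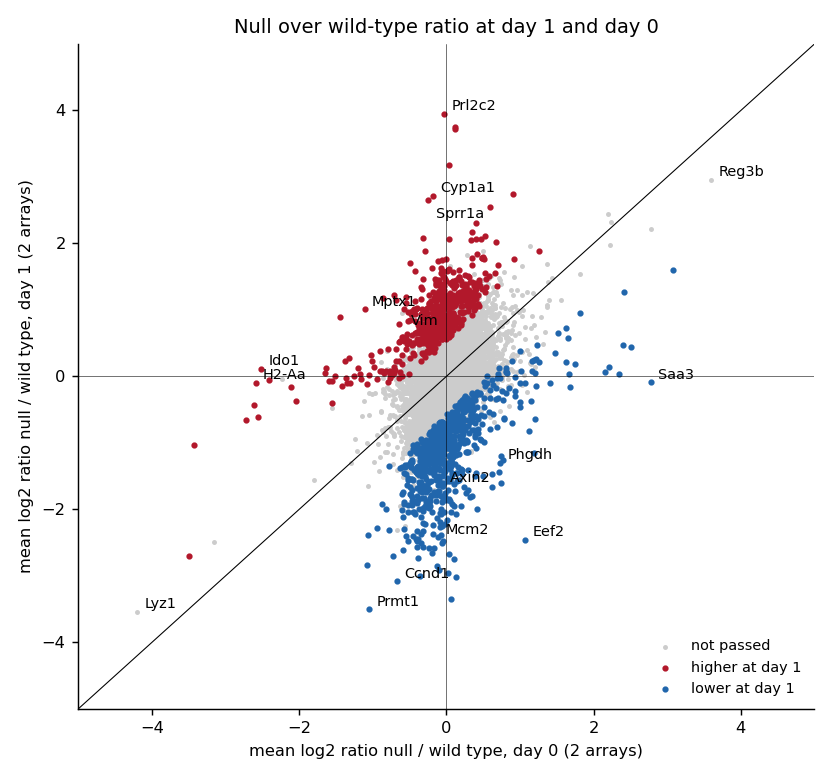
Mean log2 ratio of null over wild type of each of 15123 genes at day 1 (vertical) against day 0 (horizontal), each the mean of 2 arrays, with the diagonal marking no change. Red points are the 544 genes that passed higher at day 1 and blue points the 725 that passed lower. Most coloured points lie near 0 on the horizontal axis, while Ido1, H2-Aa and Saa3 lie far to its left or right and near 0 on the vertical axis.

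The largest rises were in 4 genes of the prolactin family, hormones mostly known from the placenta. Prl2c2 had ratios of 3.75 and 4.15 at day 1, against -0.086 and 0.026 at day 0. Both day 1 arrays stood far above both day 0 arrays, where null and wild type were level, a change of 3.98 ± 0.28 (adjusted p = 0.00115, limma), where ± is limma's standard error here and below. Prl2c3 changed by 3.65 ± 0.23, Prl2c5 by 3.61 ± 0.19 and Prl2a1 by 3.14 ± 0.16. The first 3 are near-identical genes that single probes may not tell apart. Of 21 measured genes with a Prl symbol these 4 passed and the family's median change was 0.053. The family was put together after its values were seen. Cyp1a1, a cytochrome induced through the aryl hydrocarbon receptor, had ratios of 2.87 and 2.56 at day 1, against -0.02 and -0.35 at day 0, and Sprr1a, a cornified envelope protein found in injured epithelium, of 2.62 and 2.68 at day 1, against -0.26 and -0.23 at day 0. In both genes all arrays of day 1 were well above 0 and all of day 0 below 0. Ces2a, a carboxylesterase, had ratios of 2.22 and 1.94 at day 1, against -0.38 and -0.25 at day 0.

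The rest of the 12 largest rises had ratios below 0 at day 0 that lay closer to 0, or above it, at day 1. Ido1, which degrades tryptophan and is induced by interferon gamma, had ratios of -0.064 and 0.29 at day 1, against -2.38 and -2.65 at day 0. Laptm5, a lysosomal membrane protein of blood cells, had 0.65 and 1.15 at day 1, against -1.28 and -1.62 at day 0, so its sign turned. The class II genes H2-Aa, H2-DMb1 and H2-Eb1 complete the 12.

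Eef2, the elongation factor that moves the ribosome along mRNA, had the largest fall, with ratios of -2.51 and -2.41 at day 1, against 0.95 and 1.18 at day 0, a change of -3.53 ± 0.15 (adjusted p = 0.000779, limma). Its 3 probes disagreed: 2 changed by -5.59 and -4.85 and the third by -0.14. Of the 12 largest falls, 5 were histone genes of the H2ac group. H2ac15 had ratios of -3.28 and -3.42 at day 1, against -0.22 and 0.33 at day 0, a change of -3.41 ± 0.21 (adjusted p = 0.00101, limma). H2ac12 changed by -3.14 ± 0.17, H2ac22 by -2.98 ± 0.22, H2ac7 by -2.82 ± 0.16 and H2ac24 by -2.71 ± 0.28. Of 15 measured H2ac genes, near-identical copies that a probe may not separate, 9 fell and none rose, with a median of -2.34. Of 15 H2bc genes 1 rose, and 1 of 11 H3c and 1 of 11 H4c genes fell. These groups too were formed after their values were seen. Rgcc, a regulator of the cell cycle, had ratios of -2.73 and -2.77 at day 1, against 0.10 and 0.10 at day 0. Pbk, a kinase active in mitosis, had -3.01 and -2.69 at day 1, against -0.13 and -0.14 at day 0. Siva1 had -2.69 and -2.64 at day 1, against -0.50 and 0.10 at day 0. Prmt1, the main arginine methyltransferase, was already below 0 at day 0, with -3.56 and -3.46 at day 1, against -1.17 and -0.93 at day 0.

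**Figure D2:**
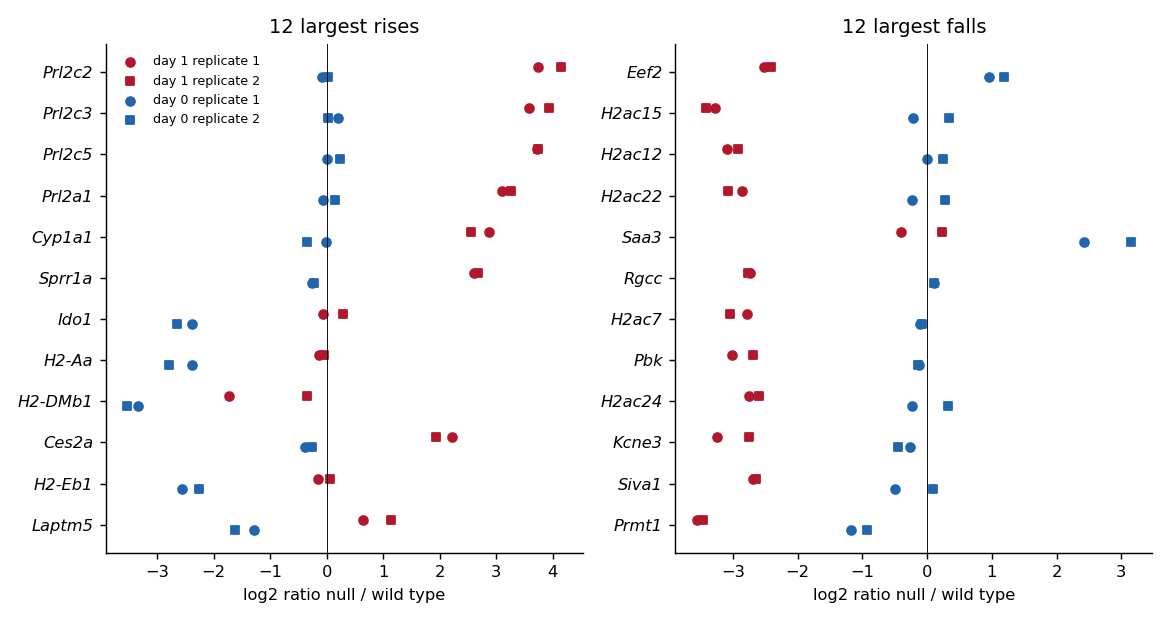
The log2 ratio of null over wild type on each of the 4 arrays for the 12 genes with the largest rises (left) and the 12 with the largest falls (right), day 1 arrays in red and day 0 arrays in blue, with circles for replicate 1 and squares for replicate 2. In every row the red points lie apart from the blue ones. Most blue points lie near 0, those of Ido1, H2-Aa, H2-DMb1, H2-Eb1 and Saa3 far from it. The blue points of Laptm5, Prmt1 and Eef2 also lie away from 0, but less far.

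Genes of DNA replication fell together. Of 45 measured, 37 were lower at day 1 than at day 0 and 0 higher, and 44 had both day 1 arrays below both day 0 arrays. Over all 15123 genes 4.79% fell and 3.6% rose, shares that also apply to the lists below. Both day 1 arrays lay below both day 0 arrays in 24.8% of all genes. For the replication list the median change was -1.52, against -0.004 over all genes. The median ratio of the list was -1.56 and -1.29 at day 1, against -0.024 and 0.029 at day 0, so null and wild type were level on the first day. Mcm2, a subunit of the replicative helicase, had ratios of -2.35 and -2.49 at day 1, against -0.25 and 0.029 at day 0, a change of -2.31 ± 0.16 (adjusted p = 0.00115, limma). Orc6, of the complex that marks replication origins, had -2.52 and -2.48 at day 1, against -0.41 and 0.29 at day 0, and Prim1, the primase subunit that makes the starting RNA, had -2.46 and -1.98 at day 1, against -0.024 and -0.009 at day 0. Chaf1b, which places histones on new DNA, had -2.59 and -1.94 at day 1, against -0.54 and 0.37 at day 0. For Rrm2, which supplies deoxyribonucleotides, the ratios were -1.81 and -1.40 at day 1, against 0.60 and 0.87 at day 0, with its 4 probes between -3.66 and -0.70. Pcna, the sliding clamp of the polymerases, lay above 0 at day 0 and below it at day 1, with -0.94 and -1.03 at day 1, against 0.64 and 0.39 at day 0. The count was 19 and 31 without day 1 replicate 1 or 2, and 7 and 18 without day 0 replicate 1 or 2.

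Of 52 measured genes of mitosis 33 fell and 0 rose, with a median change of -1.26, and all 52 changes were below 0. The median ratio was -1.67 and -1.37 at day 1, against -0.31 and -0.17 at day 0. Ect2, an exchange factor needed for cytokinesis, had ratios of -1.90 and -2.10 at day 1, against 0.78 and 0.049 at day 0. Prc1, which bundles microtubules at the spindle midzone, had -2.62 and -2.15 at day 1, against -0.27 and 0.14 at day 0, a change of -2.31 ± 0.21 (adjusted p = 0.00244, limma). For Top2a, the topoisomerase that untangles chromosomes, the arrays gave -2.87 and -2.26 at day 1, against -0.52 and -0.29 at day 0, and for Smc4, a condensin subunit, -2.24 and -1.65 at day 1, against 0.39 and -0.19 at day 0. Cenpa, the histone of the centromere, had -2.70 and -2.52 at day 1, against -0.78 and -0.40 at day 0, and its arrays of both days did not overlap either. The number that fell was 12 and 22 without day 1 replicate 1 or 2, and 6 and 10 without day 0 replicate 1 or 2.

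G1 regulators fell in part. Of 24 measured genes 8 fell and 2 rose, with a median of -0.30, which was -0.15 and -0.45 without day 1 replicate 1 or 2, and -0.12 and -0.48 without day 0 replicate 1 or 2. Ccnd1, the D cyclin that drives entry into the cycle and a Wnt target, had ratios of -3.17 and -2.99 at day 1, against -0.67 and -0.68 at day 0, 5.31-fold lower, a change of -2.41 ± 0.13 (adjusted p = 0.000779, limma). Its neighbour in function Ccnd2 had -2.69 and -2.44 at day 1, against -0.37 and -0.26 at day 0, and Cdk4, the kinase both activate, had -2.02 and -1.96 at day 1, against -0.43 and -0.31 at day 0. Ccne2, which acts at the start of S phase, had -1.69 and -0.72 at day 1, against 0.68 and 0.81 at day 0, and Rbl1, a pocket protein of the retinoblastoma family, -1.24 and -0.83 at day 1, against 0.34 and 0.42 at day 0. The 2 that rose, named after their values were seen, were Cdkn1c (1.14 and 1.14 at day 1, against -0.52 and 0.10 at day 0) and Cdkn2b (1.13 and 1.25 at day 1, against -0.23 and -0.088 at day 0), which block cyclin-dependent kinases. Cdkn1a, another inhibitor, had 1.01 and 0.70 at day 1, against 0.14 and 0.28 at day 0 and did not pass (adjusted p = 0.0805, limma). Fallen genes numbered 4 and 6 without day 1 replicate 1 or 2, and 3 and 3 without day 0 replicate 1 or 2, and neither inhibitor passed in these 4 fits.

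Promoters of cell cycle genes often carry an E2F element, bound by E2F factors at the start of S phase, or a CHR element beside CCAAT boxes, bound at the G2 to mitosis step. Such letters were searched for on both strands in RefSeq promoters (GRCm38.p6), each 250 bases before to 50 after a gene's start, which 12213 of the 15123 measured genes had, some more than 1. The E2F letters TTTNGCGC were in 12 of 46 promoters of the replication list (26.1%), against 2.02% of all 15217, and in 7 (15.2%) against 1.62% within the bases before the start. The CHR letters TTTGAA were in 32 of 47 promoters of the mitosis list (68.1%), against 14.8% of all, and 17 (36.2%) against 13.3% in that shorter stretch. CCAAT was in 80.9% of mitosis and 58.7% of replication promoters, against 38% of all. These shares count all promoters of a list, whether or not the gene fell. A link between the letters and the change was not tested. Here 3 promoters that hold these letters are shown, each the 100 bases before the start in the direction of transcription, with the matches in capitals. They are Orc1 (chr4:108579354-108579453, plus strand), which holds the E2F letters on the opposite strand and 1 CCAAT, Prc1 (chr7:80294376-80294475, plus strand) with TTTGAA and CCAAT, and Top2a (chr11:99024190-99024289, minus strand) with TTTGAA on the opposite strand and 3 CCAAT boxes, 2 of them on the opposite strand. Orc1, of the origin complex, was chosen after its values were seen, which were -1.98 and -1.63 at day 1, against 0.66 and -0.021 at day 0, a change of -2.13 ± 0.23 (adjusted p = 0.00392, limma).
Orc1: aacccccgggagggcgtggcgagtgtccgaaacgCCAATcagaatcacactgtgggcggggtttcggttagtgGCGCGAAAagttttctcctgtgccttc
Prc1: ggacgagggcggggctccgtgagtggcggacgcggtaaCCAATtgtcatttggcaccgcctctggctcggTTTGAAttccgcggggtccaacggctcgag
Top2a: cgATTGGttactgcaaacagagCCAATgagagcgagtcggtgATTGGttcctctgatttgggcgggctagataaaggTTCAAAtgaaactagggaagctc

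Genes for making ribosomes and nucleotides moved down as well. Of 47 measured nucleolar genes of ribosome biogenesis 24 fell and 0 rose, with a median of -0.83 and list medians of -1.20 and -0.95 at day 1, against -0.29 and -0.27 at day 0. Lyar, a nucleolar growth regulator, had ratios of -2.51 and -2.37 at day 1, against -0.35 and -0.47 at day 0, a change of -2.04 ± 0.14 (adjusted p = 0.00115, limma). Npm1, nucleophosmin, had -2.14 and -2.67 at day 1, against -0.29 and -0.81 at day 0, Ncl, nucleolin, -2.12 and -2.01 at day 1, against -0.41 and -0.44 at day 0, and Polr1b, a core subunit of RNA polymerase I, -1.92 and -1.25 at day 1, against -0.22 and 0.27 at day 0. Gar1, of the pseudouridylation complex, had -2.40 and -1.67 at day 1, against -0.54 and -0.33 at day 0. In 21 genes of purine and pyrimidine synthesis 13 fell and 0 rose (median -1.01). Among them were Dtymk, which makes dTDP, with -1.60 and -1.90 at day 1, against -0.035 and -0.0095 at day 0, Ctps, which makes CTP, with -1.72 and -1.43 at day 1, against -0.10 and 0.20 at day 0, and the folate enzymes Mthfd2, with -1.66 and -1.24 at day 1, against -0.18 and 0.46 at day 0, and Mthfd1, with -1.56 and -1.72 at day 1, against -0.13 and -0.53 at day 0. Paics, of purine synthesis, changed by -1.46 ± 0.31. The nucleolar count was 4 and 15 without day 1 replicate 1 or 2, and 2 and 3 without day 0 replicate 1 or 2, and the nucleotide count 1 and 9 without day 1 replicate 1 or 2, and 1 and 1 without day 0 replicate 1 or 2.

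Ribosomal protein genes changed less in size. Of 69 measured 18 fell and 0 rose, and 51 had both day 1 arrays below both day 0 arrays, against 24.8% of all genes. The list's median change was -0.47, and its median ratios were -0.68 and -0.95 at day 1, against -0.26 and -0.38 at day 0. The members furthest down were Rpl23a (-1.06 ± 0.15), Rps15a (-1.03 ± 0.18), Rps24 (-1.0 ± 0.19), Rps20 (-1.0 ± 0.17) and Rplp0 (-0.97 ± 0.14), each close to 2-fold. This count rested on the spread: it was 1 and 1 without day 1 replicate 1 or 2, and 0 and 0 without day 0 replicate 1 or 2, and 28 with the replicate block. Of 31 translation factors 5 fell (11 with the block) and 0 rose, with a median of -0.38. Apart from Eef2 they were the inhibitor Eif4ebp2 (-0.92 ± 0.15) and the initiation factor subunits Eif3a (-0.84 ± 0.15), Eif2s2 (-0.81 ± 0.16) and Eif2b1 (-0.79 ± 0.15). Leaving out any of the 4 arrays left 1 factor passing.

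Wnt target genes fell in part. Of 24 measured 8 were lower and 1 was higher at day 1, with a median of -0.34. Axin2, a feedback inhibitor of Wnt signalling, had ratios of -1.82 and -1.46 at day 1, against -0.035 and -0.065 at day 0. The arrays of day 0 were near 0 and those of day 1 well below, 3.02-fold lower, a change of -1.59 ± 0.20 (adjusted p = 0.00541, limma). Slc12a2, a chloride cotransporter of the crypt, had -2.44 and -2.44 at day 1, against -0.32 and -0.46 at day 0, and Mmp7, the protease that activates Paneth cell defensins, -2.25 and -2.51 at day 1, against -0.80 and -1.32 at day 0. With Ccnd1, Ccnd2 and Lgr5 the other fallen genes were Id2, a helix-loop-helix inhibitor (-1.32 ± 0.22), and Rnf43, which removes Wnt receptors (-0.66 ± 0.13), and the one that rose was Tspan5 (1.32 ± 0.24), these 3 named after their values were seen. Myc, with -0.54 and -0.90 at day 1, against 0.053 and -0.40 at day 0, did not pass (adjusted p = 0.199, limma), although its arrays did not overlap and it passed with the replicate block (adjusted p = 0.0454). The number that fell was 3 and 4 without day 1 replicate 1 or 2, and 3 and 3 without day 0 replicate 1 or 2. The median was -0.58 and -0.10 without day 1 replicate 1 or 2, and -0.26 and -0.48 without day 0 replicate 1 or 2.

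Genes of crypt base stem cells shared some of these members. Of 17 measured 8 fell, 11 with the replicate block, and 0 rose, with a median of -0.85 and list medians of -0.83 and -0.99 at day 1, against -0.26 and -0.22 at day 0. Lgr5, the receptor that marks these cells, had ratios of -1.19 and -0.99 at day 1, against -0.24 and -0.23 at day 0, a change of -0.86 ± 0.16 (adjusted p = 0.0205, limma). Kcne3, a potassium channel subunit, had -3.25 and -2.75 at day 1, against -0.26 and -0.46 at day 0, and Smoc2, a secreted matrix protein of stem cells, -2.23 and -1.49 at day 1, against -0.56 and -0.22 at day 0. Cdca7, a Myc and E2F target linked to DNA methylation, was below 0 on both days, with -3.37 and -2.32 at day 1, against -1.01 and -1.16 at day 0. Ascl2, the transcription factor of crypt base stem cells, had -1.72 and -1.32 at day 1, against -0.71 and -0.47 at day 0 and did not pass (adjusted p = 0.0523, limma), but passed with the replicate block (adjusted p = 0.0386). Stem cell genes that fell numbered 2 and 5 without day 1 replicate 1 or 2, and 2 and 2 without day 0 replicate 1 or 2. Among 4 reserve stem cell genes Hopx fell, with -1.80 and -3.35 at day 1, against 0.70 and -1.17 at day 0. Its replicates lay far apart on both days. Of 15 Notch pathway genes 2 fell, where 4.79% of all genes fell, and 0 rose (median 0.022). These were the receptor Notch1, with -1.58 and -1.27 at day 1, against -0.19 and -0.40 at day 0, and the feedback regulator Nrarp, with -0.85 and -0.96 at day 1, against 0.23 and -0.061 at day 0, while the effector Hes1 changed by 0.11 ± 0.24 and did not pass.

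**Figure D3:**
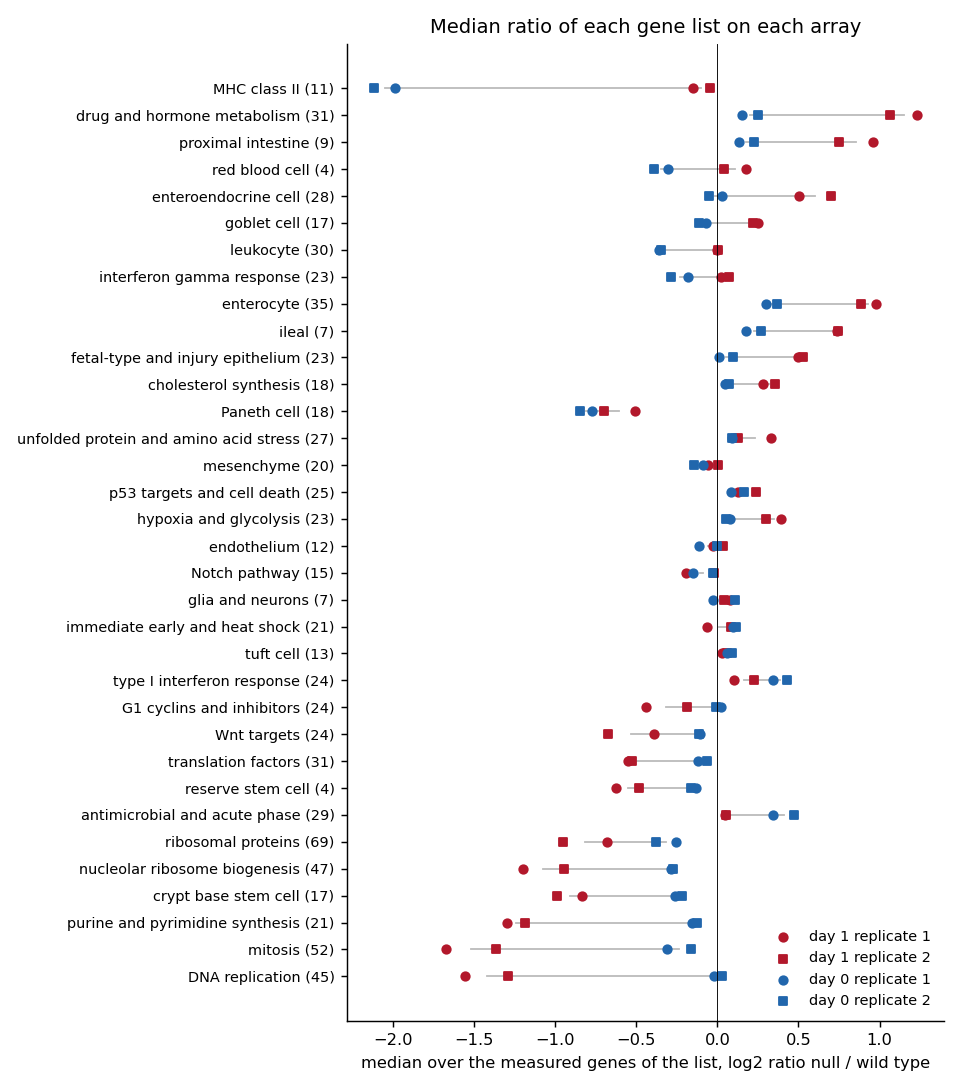
The median log2 ratio of null over wild type over the measured genes of each list (number in brackets) on each array, day 1 in red and day 0 in blue, with circles for replicate 1 and squares for replicate 2 and a grey line between the means of the days. The lists are ordered by their median change, from MHC class II at the top (1.67) to DNA replication at the bottom (-1.52).

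Because the ratios spread wider at day 1, the lists were also counted with arrays scaled to equal spread. Genes that then passed lower numbered 29 for DNA replication, 17 for mitosis, 6 for ribosome biogenesis, 6 for ribosomal proteins, 5 for nucleotide synthesis, 5 for Wnt targets, 4 for stem cells and 1 for translation factors. Those that passed higher numbered 8 for MHC class II, 9 for leukocytes, 4 for enterocytes, 2 for goblet cells, 2 for enteroendocrine cells and 3 for fetal-type and injured epithelium. Of these 14 counts that for MHC class II equalled the count without scaling and the others were smaller. In the cholesterol and p53 lists 0 genes passed.

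More genes of differentiated epithelium and of drug and hormone metabolism rose than fell. Among these lists the largest share was in drug and hormone metabolism, where 15 of 31 measured genes rose and 0 fell. Its median change was 0.82. Its members include inducible enzymes such as Cyp1a1, and the cell type behind the change was not tested. The list medians were 1.23 and 1.06 at day 1, against 0.15 and 0.25 at day 0. Aldh1a1, which makes retinoic acid, had ratios of 1.5 and 1.12 at day 1, against -0.37 and -0.30 at day 0. Gstm3, a glutathione transferase, had 1.89 and 1.13 at day 1, against 0 and -0.10 at day 0, and the quinone reductase Nqo1 1.42 and 1.32 at day 1, against -0.088 and -0.20 at day 0, a change of 1.51 ± 0.14 (adjusted p = 0.00255, limma). Cyp1a1 and Ces2a, given above, led the list. The number that rose was 4 and 7 without day 1 replicate 1 or 2, and 3 and 4 without day 0 replicate 1 or 2, and 5 with arrays scaled to equal spread.

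Of 35 enterocyte genes 9 rose and 1 fell, with a median of 0.40. Myo7b, a myosin of the brush border, had ratios of 1.32 and 1.36 at day 1, against -0.38 and -0.32 at day 0, a change of 1.69 ± 0.14 (adjusted p = 0.00165, limma). Cdhr5, a protocadherin that links microvilli, had 1.57 and 1.27 at day 1, against -0.047 and -0.22 at day 0, and Vil1, villin of the microvillus core, 1.54 and 1.11 at day 1, against 0.18 and 0.034 at day 0. In all 3 the day 0 arrays were close to 0 and the day 1 arrays well above them. Krt20, a keratin of surface cells, changed by 1.23 ± 0.23 and Creb3l3, a transcription factor of lipid metabolism, by 1.43 ± 0.30. The one that fell was Ada, adenosine deaminase, with 0.18 and 0.69 at day 1, against 2.39 and 2.62 at day 0, a ratio closer to 0 at day 1 than at day 0. The count of rises was 2 and 4 without day 1 replicate 1 or 2, and 2 and 2 without day 0 replicate 1 or 2, and the median was 0.62 without day 0 replicate 1. Of 9 genes of the proximal intestine 3 rose: S100g, a calcium carrier, with 2.56 and 2.53 at day 1, against 0.45 and 0.72 at day 0, the transcription factor Onecut2, with 1.41 and 1.52 at day 1, against -0.32 and 0.025 at day 0, and the hormone Gip (0.70 ± 0.16). Of 7 ileal genes the bile acid transporter subunit Slc51b was the one that passed (0.85 ± 0.20).

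Of 17 goblet cell genes 5 rose and 0 fell (median 0.44). Zg16, a lectin of mucus, had ratios of 2.17 and 2.44 at day 1, against 0.36 and 0.45 at day 0, a change of 1.90 ± 0.22 (adjusted p = 0.00433, limma), and Clca1, a mucus protein, 1.39 and 1.23 at day 1, against -0.10 and 0.033 at day 0, with its 2 probes at 0.57 and 2.10. Tff3, the trefoil peptide, had 1.25 and 1.11 at day 1, against 0.35 and -0.008 at day 0. The resistin-like protein Retnlb changed by 0.94 ± 0.23 and Klk1, a kallikrein, by 0.91 ± 0.20. Of 28 enteroendocrine genes 8 rose and 0 fell (median 0.48), where 3.6% of all genes rose. In 19 both day 1 arrays lay above both day 0 arrays, against 24% of all genes. Ghrl, the hormone ghrelin, had 1.47 and 1.32 at day 1, against 0.23 and -0.04 at day 0. The granule proteins Chgb, with 1.14 and 1.62 at day 1, against -0.55 and 0.36 at day 0, and Chga, with 0.69 and 0.53 at day 1, against -0.20 and -0.063 at day 0, and the hormones Tac1 (1.06 ± 0.21), Sst (1.02 ± 0.15) and Nts (0.89 ± 0.15) moved the same way. These calls were fragile: the goblet count was 1 and 2 without day 1 replicate 1 or 2, and 0 and 1 without day 0 replicate 1 or 2, and the enteroendocrine count 0 and 1 without day 1 replicate 1 or 2, and 0 and 0 without day 0 replicate 1 or 2 (12 with the replicate block), with 1 other gene lower without day 1 replicate 2. None of 13 tuft cell genes passed (median -0.05).

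Paneth cell genes did not move as 1 group. Of 18 measured 4 rose and 2 fell, with a median of 0.19, and the list stayed below 0 on both days, at -0.51 and -0.70 at day 1, against -0.77 and -0.84 at day 0. Lyz1, the Paneth lysozyme, had ratios of -3.91 and -3.17 at day 1, against -4.26 and -4.14 at day 0, and its change of 0.66 ± 0.20 did not pass (adjusted p = 0.0974, limma). Its 2 probes changed by 0.075 and 1.24. Defa31, one of the near-identical alpha-defensins, had -2.50 and -2.91 at day 1, against -3.40 and -3.58 at day 0. Mptx1, a pentraxin, had 1.01 and 1.01 at day 1, against -1.16 and -1.06 at day 0, and Pnliprp2, a lipase-related protein, 1.08 and 1.36 at day 1, against -0.85 and -0.56 at day 0. In both genes the ratio was below 0 at day 0 and above it at day 1. Nupr1, a stress-induced nuclear protein, had 1.58 and 2.01 at day 1, against 0.47 and 0.51 at day 0. Mmp7, given with the Wnt targets, and Cd24a, a surface protein also found on other crypt base cells, with -1.23 and -1.16 at day 1, against -0.043 and -0.63 at day 0, fell. Genes that rose numbered 3 and 3 without day 1 replicate 1 or 2, and 1 and 1 without day 0 replicate 1 or 2, and neither fallen gene passed in these fits. The median was 0.30 and 0.18 without day 1 replicate 1 or 2, and 0.39 and 0.22 without day 0 replicate 1 or 2.

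Of 23 genes of fetal-type and injured epithelium 7 rose and 1 fell, with a median of 0.37. Besides Sprr1a, F3, the tissue factor of coagulation, had ratios of 1.96 and 2.14 at day 1, against 0.33 and 0.34 at day 0, a change of 1.72 ± 0.17 (adjusted p = 0.00287, limma). Ly6d, a surface protein of stratified epithelia, had 1.36 and 1.36 at day 1, against -0.14 and -0.027 at day 0, and Cldn4, a tight junction claudin, 1.76 and 2.27 at day 1, against 0.40 and 0.94 at day 0. Ccn2, a matrix protein and target of the YAP pathway, went the other way, with -1.47 and -0.82 at day 1, against 0.051 and 0.10 at day 0. Clu, which marks revival stem cells, changed by -0.31 ± 0.29 and did not pass. The number that rose was 3 and 3 without day 1 replicate 1 or 2, and 1 and 3 without day 0 replicate 1 or 2, and the median 0.49 and 0.50 without day 1 replicate 1 or 2, and 0.24 and 0.63 without day 0 replicate 1 or 2.

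Genes of MHC class II, which present peptides to helper T cells and are made by antigen-presenting cells and by epithelium under interferon gamma, had a list median closer to 0 at day 1 than at day 0. Of 11 measured 8 rose and 0 fell, with a median of 1.67. The list medians were -0.15 and -0.048 at day 1, against -1.99 and -2.12 at day 0. H2-Aa, an alpha chain, had ratios of -0.14 and -0.048 at day 1, against -2.39 and -2.79 at day 0, 5.64-fold higher, a change of 2.49 ± 0.26 (adjusted p = 0.00322, limma). H2-Ab1, its beta chain, had -0.88 and -0.42 at day 1, against -2.75 and -2.70 at day 0, and H2-Eb1 -0.15 and 0.057 at day 1, against -2.56 and -2.26 at day 0. The invariant chain Cd74 had -0.17 and -0.68 at day 1, against -2.53 and -2.69 at day 0, and H2-DMb1, of the complex that loads peptides, -1.72 and -0.34 at day 1, against -3.34 and -3.53 at day 0. On no array of day 1 was any of these 5 as low as on day 0, and at day 1 all but H2-Eb1 were below 0 on both arrays. The count was 6 and 7 without day 1 replicate 1 or 2, and 3 and 3 without day 0 replicate 1 or 2. Here 2 class II promoters are shown because their CCAAT boxes, in 77.8% of the 9 promoters of the list against 38% of all, lie close before the start, and capitals mark them or their opposite strand. They are H2-Aa (chr17:34287824-34287923, minus strand) and H2-Eb1 (chr17:34305767-34305866, plus strand).
H2-Aa: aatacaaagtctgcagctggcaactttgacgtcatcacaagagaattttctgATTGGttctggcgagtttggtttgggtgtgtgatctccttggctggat
H2-Eb1: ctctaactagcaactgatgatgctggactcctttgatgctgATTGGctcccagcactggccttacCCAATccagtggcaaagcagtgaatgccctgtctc

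The ratios of leukocyte genes rose beside them. Of 30 measured 11 rose and 0 fell, with a median of 0.42, and the list medians were -0.0001 and 0.0008 at day 1, against -0.36 and -0.35 at day 0, near 0 at day 1 and below it at day 0. Gzma, a granzyme of killer lymphocytes, had ratios of 0.22 and -0.20 at day 1, against -1.23 and -1.80 at day 0, and Gzmb, another, -0.093 and 0.046 at day 1, against -1.20 and -1.53 at day 0. Cd3g, of the T cell receptor complex, had 0.14 and -0.13 at day 1, against -1.21 and -1.30 at day 0, a change of 1.26 ± 0.15 (adjusted p = 0.00488, limma), and the chemokine Ccl5 -0.21 and 0.07 at day 1, against -1.14 and -2.05 at day 0. Ptprc, the common leukocyte antigen, had 0.39 and -0.17 at day 1, against -0.37 and -0.55 at day 0 and did not pass (adjusted p = 0.145, limma). Leukocyte genes that rose numbered 3 and 4 without day 1 replicate 1 or 2, and 2 and 0 without day 0 replicate 1 or 2. Signal over background is unknown, so ratios near 0 do not show whether these RNAs were still measurable at day 1. The part of leukocytes in the class II change was not tested.

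The interferon gamma list had 4 of 23 genes higher and 0 lower, with a median of 0.42. With Ido1 these were Ubd, a ubiquitin-like modifier, with -0.88 and -0.34 at day 1, against -2.64 and -2.49 at day 0, the peptide transporter Tap2, with 0.39 and 0.68 at day 1, against -0.92 and -0.24 at day 0, and the chemokine Cxcl9 (0.80 ± 0.15), whose 2 probes changed by 0.22 and 1.37. Genes induced by type I interferon went the other way in 5 of 24 cases (median -0.18, or -0.10 without day 0 replicate 2). Rsad2, viperin, had ratios of -0.43 and 0.22 at day 1, against 1.52 and 1.29 at day 0, and Ifit2, which binds viral RNA, -0.65 and -0.28 at day 1, against 0.90 and 1.11 at day 0. Both lay above 0 at day 0 and, but for 1 array of Rsad2, below it at day 1. Ifit3 had 0.075 and 0.04 at day 1, against 1.17 and 1.23 at day 0, Bst2, tetherin, -1.31 and -1.48 at day 1, against -0.34 and -0.048 at day 0, and Trim30a changed by -0.71 ± 0.15. The one that rose, Irf7 (0.57 ± 0.13), is a transcription factor of the same response, named after its values were seen. Counts were 2 and 2 without day 1 replicate 1 or 2, and 1 and 1 without day 0 replicate 1 or 2 for the interferon gamma list and 1 and 3 without day 1 replicate 1 or 2, and 0 and 0 without day 0 replicate 1 or 2 for the fallen type I genes. With the replicate block 7 genes of the interferon gamma list passed.

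Of 29 antimicrobial and acute phase genes 10 fell and 0 rose, with a median of -0.47. Saa3, a serum amyloid, had ratios of -0.41 and 0.23 at day 1, against 2.42 and 3.15 at day 0, 7.3-fold lower, a change of -2.87 ± 0.20 (adjusted p = 0.00115, limma), and Saa1 -0.10 and 0.16 at day 1, against 2.19 and 2.50 at day 0. Il18, a cytokine of epithelium, had 0.17 and -0.04 at day 1, against 2.34 and 1.97 at day 0. In these 3 the excess in null crypts at day 0 was gone at day 1, where the arrays lay around 0. Ccl20, which draws lymphocytes and dendritic cells, had 0.31 and 0.072 at day 1, against 2.03 and 1.47 at day 0. Reg3g, a bactericidal lectin, stayed above 0, with 1.73 and 1.46 at day 1, against 3.24 and 2.91 at day 0. Its relative Reg3b had 2.93 and 2.98 at day 1, against 3.92 and 3.28 at day 0 and did not pass (adjusted p = 0.114, limma). The number that fell was 4 and 4 without day 1 replicate 1 or 2, and 3 and 4 without day 0 replicate 1 or 2, and the median was -0.28 without day 1 replicate 1.

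Stress and metabolic lists were mixed. Over all genes 3.6% rose and 4.79% fell. In the unfolded protein and amino acid list 2 of 27 rose and 3 fell (median 0.13). The serine synthesis enzymes fell: Phgdh had ratios of -1.14 and -1.46 at day 1, against 0.66 and 0.81 at day 0, a change of -2.04 ± 0.17 (adjusted p = 0.00217, limma), and Psat1 -1.46 and -1.31 at day 1, against 0.22 and 0.18 at day 0. Asns, asparagine synthetase, changed by -0.68 ± 0.14, while the cystine carrier Slc7a11 (1.03 ± 0.16) and the chaperone Pdia4 (0.79 ± 0.14) rose. In hypoxia and glycolysis 3 of 23 rose and 2 fell (median 0.10). Hk2, a hexokinase, had -0.41 and -0.33 at day 1, against 1.04 and 1.27 at day 0, and Ndrg1, a differentiation and stress gene, 1.61 and 1.65 at day 1, against -0.32 and -0.073 at day 0. Hk1 (0.66 ± 0.15) and Egln3, an oxygen sensor (0.81 ± 0.19), rose, and Pdk1 (-0.92 ± 0.19), which restrains pyruvate oxidation, fell. In cholesterol synthesis 3 of 18 rose, Dhcr7 (1.43 ± 0.22), Insig1 (0.61 ± 0.15) and Mvd (0.58 ± 0.13), and the sterol carrier Stard4 (-0.60 ± 0.14) fell, with a median of 0.33.

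Among 25 p53 targets and cell death genes Plk3, a stress kinase (1.25 ± 0.21), and Bak1, which permeabilises mitochondria (0.95 ± 0.22), rose and Phlda3 (-0.56 ± 0.13) fell, with a median of 0.10. Of 21 immediate early and heat shock genes Zfp36, which destabilises mRNA (1.30 ± 0.20), rose and the growth-response factors Jun (-0.68 ± 0.14) and Fos (-0.61 ± 0.15) fell (median -0.044). So few calls in a p53 list of this size are not far from the shares of all genes, 3.6% higher and 4.79% lower. Fos was above 0 on all 4 arrays, with 0.30 and 0.46 at day 1, against 0.95 and 1.04 at day 0. In these 5 lists 0 to 2 genes a direction passed when any of the 4 arrays was left out. With the replicate block, 4 unfolded protein genes, 5 hypoxia genes, 5 cholesterol genes and 4 p53 genes rose, and 3 p53 and 5 immediate early genes fell.

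Few markers of other cells passed apart from those of leukocytes. Of 20 mesenchyme genes, whose median change was 0.11, 2 rose and 0 fell, where 3.6% of all genes rose. Vim, the intermediate filament vimentin, which leukocytes also make, had ratios of 0.86 and 1.17 at day 1, against -0.68 and -0.48 at day 0, a change of 1.60 ± 0.14 (adjusted p = 0.00217, limma). The matrix proteoglycan Dcn had 0.06 and 0.019 at day 1, against -0.56 and -0.47 at day 0, and the collagen gene Col3a1 changed by 0.27 ± 0.26 and did not pass. None of 12 endothelial and 7 glial or neuronal genes passed (medians 0.074 and 0.003). Of 4 red blood cell genes Hba-a1, a haemoglobin chain, rose (0.91 ± 0.14). Among epithelial markers Epcam changed by -0.051 ± 0.33 and Cdh1, E-cadherin, by 0.34 ± 0.27, neither passing. The keratins Krt18 (0.97 ± 0.14) and Krt19 (1.34 ± 0.17) and the intestinal transcription factor Cdx2 (0.94 ± 0.15) rose, and Krt8 (0.64 ± 0.22) did not pass. Ratios do not show levels, so the labelled tissue could not be checked by how strongly its markers are expressed.

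At day 0.5, whose 2 arrays both carried the null RNA in Cy5, 1079 of the 1269 genes (85%) had a mean ratio between those of day 0 and day 1, against 6301 of all 15123 (41.7%). The median share of the change already present at day 0.5 was 32.8%, 42.3% for genes that rose and 26.4% for those that fell. These shares are a description, since they use the day 0 and day 1 arrays that chose the genes. Genes of mitosis that fell had a median of -5.89% and those of DNA replication 30.9%. Larger shares were found for crypt base stem cell genes (55.1%), MHC class II (74.2%), antimicrobial (78.7%), type I interferon (80.7%) and leukocyte genes (101%). Prc1 had ratios of -0.27 and 0.14 at day 0, -0.29 and 0.14 at day 0.5 and -2.62 and -2.15 on day 1. Axin2 had -0.035 and -0.065 at day 0, -1.24 and -1.5 at day 0.5 and -1.82 and -1.46 on day 1, and Saa1 2.19 and 2.50 at day 0, 0.58 and 0.23 at day 0.5 and -0.10 and 0.16 on day 1. Axin2 and Saa1 were near their day 1 value at day 0.5, while Prc1 was still near its day 0 value.

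**Figure D4:**
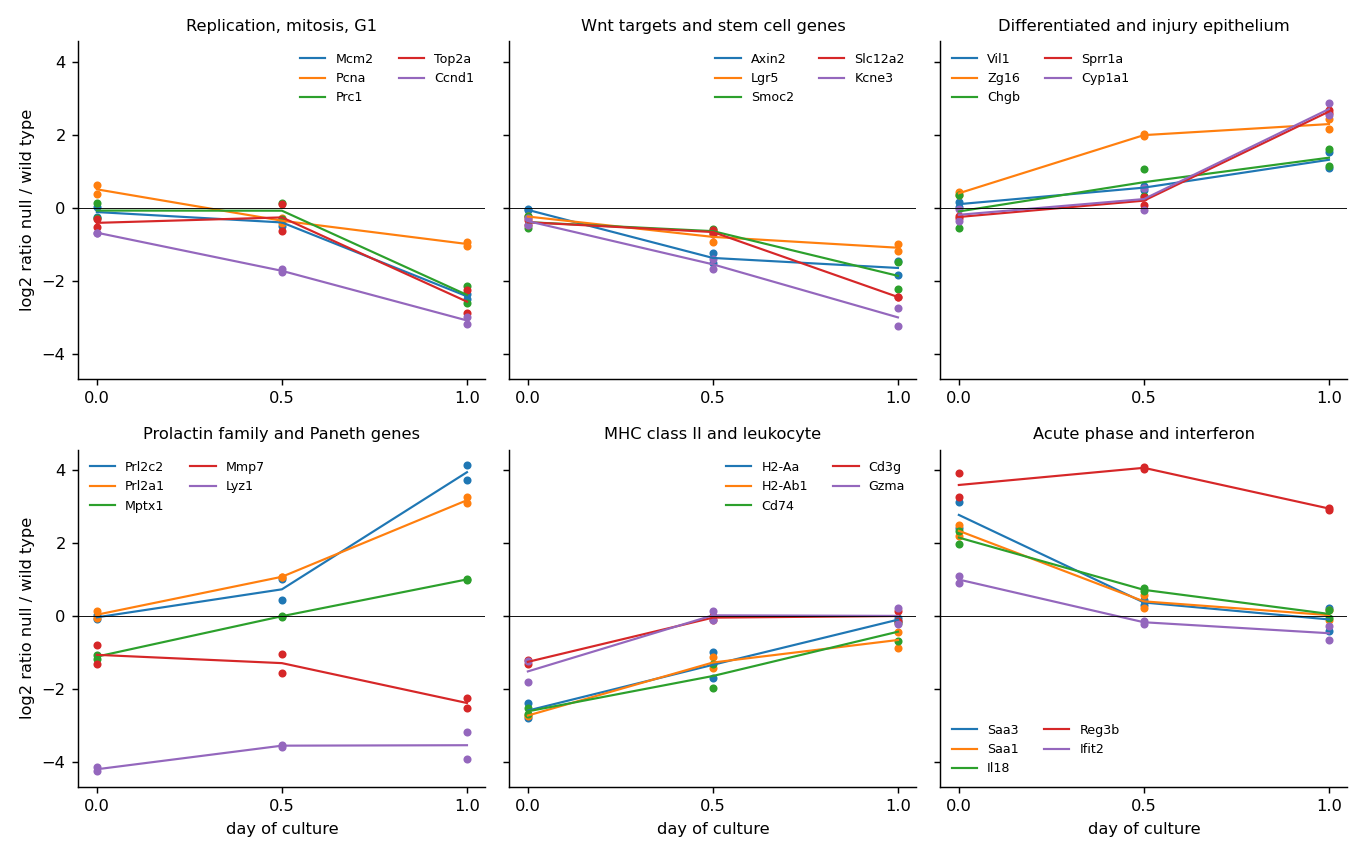
The log2 ratio of null over wild type by culture day (0, 0.5 and 1) for 30 genes in 6 groups, with a point for each of the 2 arrays of a day and a line through their means. Prc1, Top2a, Sprr1a and Cyp1a1 differ from day 0 mainly at day 1, while Axin2, Cd3g, Gzma, Saa3 and Saa1 have moved most of the way by day 0.5.

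Close to the threshold, Defa31 (adjusted p = 0.0499), Ttc27 (0.0497) and Idh2 (0.0496) lay just inside, with changes of 0.79, -0.85 and -0.79. Just outside were Hsd3b7 (adjusted p = 0.05), Adcy4 (0.0501) and Arid5b (0.0502) in limma, with changes of 0.56, 0.80 and -0.55. With the replicate block the last 3 passed too (adjusted p = 0.04, 0.0116 and 0.0391). All 6 had both day 1 arrays on one side of both day 0 arrays.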

How the data were processed

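The authors deposited log2 ratios (the base is assumed) of 2 channels per probe for 8 MEEBO arrays of 70mer probes. Per the labels, total RNA was amplified, coupled to Cy5 or Cy3 and hybridised as pairs. How background was corrected and ratios were normalized is not given in the sources used here. Signal over background is unknown, and the number of arrays limits the precision. Of 38467 probes, 22941 had 1 gene symbol, 0 several and 15526 none, and after control series were left out 22305 probes of 15123 genes remained, averaged per gene (5108 genes with several probes). Each array's median was subtracted. All 8 arrays were fitted in limma 3.58.1 (R 4.3.3) with 4 group means and a term for the null dye (3 residual degrees of freedom, 4.09 from the prior), for the contrast of day 1 minus day 0, with Benjamini-Hochberg adjustment over all genes. Errors after ± are limma standard errors of the change on the log2 scale (median 0.165). The steps were tested on simulated data. Python 3.11.15 with pandas 2.3.3, numpy 2.4.6 and matplotlib 3.10.9 did the remaining steps.

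The LiCl arrays entered only the estimate of spread, since they correlated below 0 with the others (down to -0.579) and their direction is not settled. The main fit did not pair the arrays. Replicate numbers were taken to pair them in the replicate block alone. The basis was that deviations of same-numbered arrays correlated at 0.265 to 0.278 between the groups without LiCl. Pairs with the LiCl group gave 0.21 to 0.271, but these values would change sign if the LiCl direction were turned. The labels tie no number to an animal or day. Replicate number and null dye coincide at day 1 and day 0. Genes were named by rule: the 12 largest rises and falls, up to 5 passing genes of each of 34 lists by size of change, fixed marker genes, 3 genes on each side of the threshold and up to 6 whose sign turned. The members, lists and rules were chosen with earlier results of these data known. Promoters came from RefSeq (GRCm38.p6). The alternatives were other probe and array settings, the fits without 1 array and the replicate block. Columns of other series numbered 0.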

Additional observations from a re-analysis of the deposited data

Results flagged for a closer look

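The ratio differed between the days, by limma's test of the difference itself, for 1269 of 15123 genes, the comparison described above. Among them 6 genes had the clearest change of sign, with the mean of the 2 arrays away from 0 on opposite sides on the 2 days. Sgpp1, a phosphatase that degrades sphingosine-1-phosphate, had ratios of -0.67 and -1.64 at day 1, against 0.88 and 1.5 at day 0, a change of -2.34 ± 0.34 (adjusted p = 0.00864, limma). Etv5, a transcription factor downstream of receptor kinases, had -0.92 and -0.72 at day 1, against 1.84 and 0.40 at day 0, a change of -1.94 ± 0.39 (adjusted p = 0.0271, limma), and its day 0 arrays lay far apart. Eef2, with the probe disagreement given above, changed by -3.53. On the rising side Mptx1 changed by 2.12 and Laptm5 by 2.35. Serpinb9b, a protease inhibitor, had 1.32 and 1.03 at day 1, against -0.68 and -1.04 at day 0, a change of 2.03 ± 0.19 (adjusted p = 0.00255, limma). Which genotype's RNA moved was not tested for any of them.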

How the results depend on the processing

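The count of 1269 genes (544 higher, 725 lower) was 493 (208 and 285) after scaling the arrays to equal spread, 2146 (964 and 1182) with the day 1 and day 0 arrays alone, 1964 (858 and 1106) with the replicate block and 657 (265 and 392) at 2-fold or more. Leaving out 1 array gave 110 to 1358 genes, 41 to 583 higher and 69 to 775 lower. The lowest counts came without day 0 replicate 1 (110) and day 0 replicate 2 (168). Between 1108 and 1718 passed under the other settings: mMC probes alone, the median of probes, disagreeing probes left out, probes of all series, no centring, no dye term, robust eBayes, no LiCl arrays, and LiCl ratios with the sign turned, which was chosen after seeing the data. The mMC probes alone covered 1222 of the 1269, and 3 of these changed direction, none of them named here. No other setting turned any of the 1269 that it covered. Of the 147 passing genes that the rule names (those named after their values were seen are left out), 71 and 92 still passed without day 1 replicate 1 or 2, 48 and 56 without day 0 replicate 1 or 2, 98 with scaled arrays and 147 with the replicate block. The block also called Ascl2, Myc, Adcy4, Arid5b and Hsd3b7, and called 28 ribosomal protein and 11 translation factor genes lower. It gave 2 genes in place of 1 in the reserve stem cell, ileal and red blood cell lists. Share of higher genes among calls was 32.6% to 44.9%, against 42.9%. The cause of these differences was not tested. A fit without a day 1 or day 0 array also leaves 1 array in that group.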

Other observations

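Probes without a gene symbol also moved. Of 12773 such probes outside the control series, 85 were higher and 189 lower at day 1 by at least 2-fold with no overlap of the arrays (2.15%), against 455 and 693 of 22305 named probes (5.15%). Their changes ranged from -3.04 to 3.92, so part of the largest changes has no gene name here.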
